A study of Mus musculus with 20 samples.

Results

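The core circadian clock genes of mouse liver were followed here as 10 genes, namely Arntl, Clock, Npas2, Per1, Per2, Per3, Cry1, Cry2, Nr1d1 and Nr1d2. They were found on the array by the gene name of each probe, which gave 18 probes out of 41174, and 9 of the 10 genes passed the filter on dim probes and were tested. Npas2 was the gene that did not pass. The tested table as a whole held 17194 genes and unnamed probes.

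All livers were from males of the inbred strain C57BL/6J. All animals ate from weaning a diet that drew 60% of its energy from fat, and their livers were taken at an age of 6 weeks. The 10 responder livers were labelled as susceptible to diet-induced obesity, and the 10 non-responder livers as resistant to it. Both groups therefore shared the strain, sex, age and diet, and no group on standard chow was analysed here. The hour of day, the feeding state at sampling and the identity of the animals are not in the labels, so the p-values below reflect only how far these samples lay apart, and no liver was assigned a phase.

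The clock is a feedback loop of transcription. The proteins BMAL1 (from Arntl) and CLOCK, or its relative NPAS2, bind E-box sequences and switch on the Per, Cry and Nr1d genes. PER and CRY proteins then return to the nucleus and block BMAL1 and CLOCK, while REV-ERBα and REV-ERBβ (from Nr1d1 and Nr1d2) sit on ROR elements and hold down Arntl, Clock and Cry1. In mouse liver the transcripts accordingly peak in sequence over the day, with Nr1d1 and Per3 ahead of Per2, Per2 ahead of Cry1, and Arntl roughly opposite to Nr1d1. Members that peak at opposite times are kept apart below.

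Promoter stretches of 6 members are shown first, to show the kinds of letters that proteins of the loop are known to bind. The sequences are RefSeq's, on the build GRCm38.p6, written 5′ to 3′ along the gene's own strand, and capitals mark exact matches to a searched motif. The upstream stretches are the 250 bases before an annotated start, and the Arntl line is a short stretch after a start, whose motif begins 31 bases past it.
Arntl, chr7:113207532-113207557, + strand: ggcagaaagtAGGTCAgggacggagg
Cry1, chr10:85185055-85185304, - strand: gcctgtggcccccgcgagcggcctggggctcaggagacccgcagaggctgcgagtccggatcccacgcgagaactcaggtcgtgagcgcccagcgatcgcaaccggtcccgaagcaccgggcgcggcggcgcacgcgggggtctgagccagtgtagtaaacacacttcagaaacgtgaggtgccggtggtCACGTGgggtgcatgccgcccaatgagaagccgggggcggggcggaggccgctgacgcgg
Per1, chr11:69098699-69098948, + strand: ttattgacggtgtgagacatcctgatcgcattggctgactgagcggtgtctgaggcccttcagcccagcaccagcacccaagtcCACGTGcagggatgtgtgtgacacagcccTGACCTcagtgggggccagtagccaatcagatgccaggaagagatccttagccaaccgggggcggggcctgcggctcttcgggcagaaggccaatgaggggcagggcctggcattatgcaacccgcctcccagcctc
Per3, chr4:151044666-151044915, - strand: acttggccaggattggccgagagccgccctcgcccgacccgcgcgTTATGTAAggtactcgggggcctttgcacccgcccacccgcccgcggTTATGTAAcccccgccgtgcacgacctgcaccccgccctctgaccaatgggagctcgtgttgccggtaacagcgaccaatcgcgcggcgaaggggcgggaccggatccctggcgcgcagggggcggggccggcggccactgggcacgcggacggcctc
Nr1d2, chr14:18239107-18239356, - strand: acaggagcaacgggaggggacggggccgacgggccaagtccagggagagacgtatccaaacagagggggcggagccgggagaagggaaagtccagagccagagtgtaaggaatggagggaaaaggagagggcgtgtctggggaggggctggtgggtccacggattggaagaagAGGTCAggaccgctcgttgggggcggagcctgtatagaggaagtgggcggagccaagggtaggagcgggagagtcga
Nr1d1, chr11:98775378-98775627, - strand: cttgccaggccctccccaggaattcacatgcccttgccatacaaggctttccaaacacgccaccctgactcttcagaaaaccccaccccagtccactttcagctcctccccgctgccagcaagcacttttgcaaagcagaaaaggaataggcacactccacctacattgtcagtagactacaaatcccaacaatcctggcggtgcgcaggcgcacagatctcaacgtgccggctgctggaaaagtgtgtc

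The Arntl and Nr1d2 sites carry AGGTCA, the core letters of the element that ROR and REV-ERB proteins share. Cry1 has the E-box CACGTG 60 bases upstream of its start. Per1 holds an E-box 166 bases upstream and, on the other strand, the AGGTCA core as TGACCT 137 bases upstream. Per3 holds 2 copies of the D-box TTATGTAA, the site of DBP, TEF, HLF and NFIL3, at 205 and 158 bases upstream. The Nr1d1 window is shown because that gene had no detectable relation with Per3 in these livers, and none of the searched letters occurs in it.

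Windows of 300 bases, 250 before and 50 after a start, were listed for 9 of the 10 members in 13 versions, and both strands were read. Of these 13 windows, 2 held the E-box, 4 the AGGTCA core (the fourth being one of Clock, 119 bases upstream) and 1 the D-box. No motif stood in more than 1 window of a member. Among all 32851 windows of that length, 7.15% held the E-box, 16.3% the AGGTCA core and 0.938% the D-box. The motifs do not overlap each other in these windows. A match describes letters only, and a window without one says nothing about the factor.

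All levels are log2 of the background-subtracted spot intensity minus the 75th percentile of its own array, so 0 is the level of a fairly bright probe and 1 unit is a doubling. Levels were not compared between genes. Group differences are responder minus non-responder, with slide series as a term. The arrays fell into 2 slide series that coincide with the scan date, the first with 4 responders and 6 non-responders, the second with 6 responders and 4 non-responders. No spot was saturated, and the share of spots well above background was 55.8% on the lowest array and 71.2% on the highest. Hepatocyte markers were high on every array. The mean level of 6 of 7 listed hepatocyte markers lay between 7.44 and 7.79 in responders, against 7.41 to 8.56 in non-responders. Adipose markers, 7 of 8 tested, had a mean level that ranged from -2.48 to 0.31 in responders and from -1.64 to 1.62 in non-responders. Of these 7, 6 were lower in responders, with a median difference of -1.36, and 5 of them had an unadjusted p under 0.05 (limma), as 7.98% of all genes did, though none was called. All 6 stellate and fibroblast markers were lower in responders too, 3 of them at an unadjusted p under 0.05 and none called, with a median of -0.36. The part of these cells in the clock gene values was not tested. In such bulk RNA, fewer cells of a type and less RNA per cell cannot be told apart.

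No clock gene passed the test between responders and non-responders, and the differences were small beside the spread between livers. Across all genes, 0% were called at an adjusted p under 0.05 (limma with Benjamini-Hochberg adjustment; smallest adjusted p = 0.273), while 1372 had an unadjusted p under 0.05, or 7.98%. None of the 9 tested members was among those 1372. The median absolute difference was 0.14 over the tested members and 0.09 over all genes. The groups overlapped in every member, as the plot of levels by group shows.

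**Figure D1:**
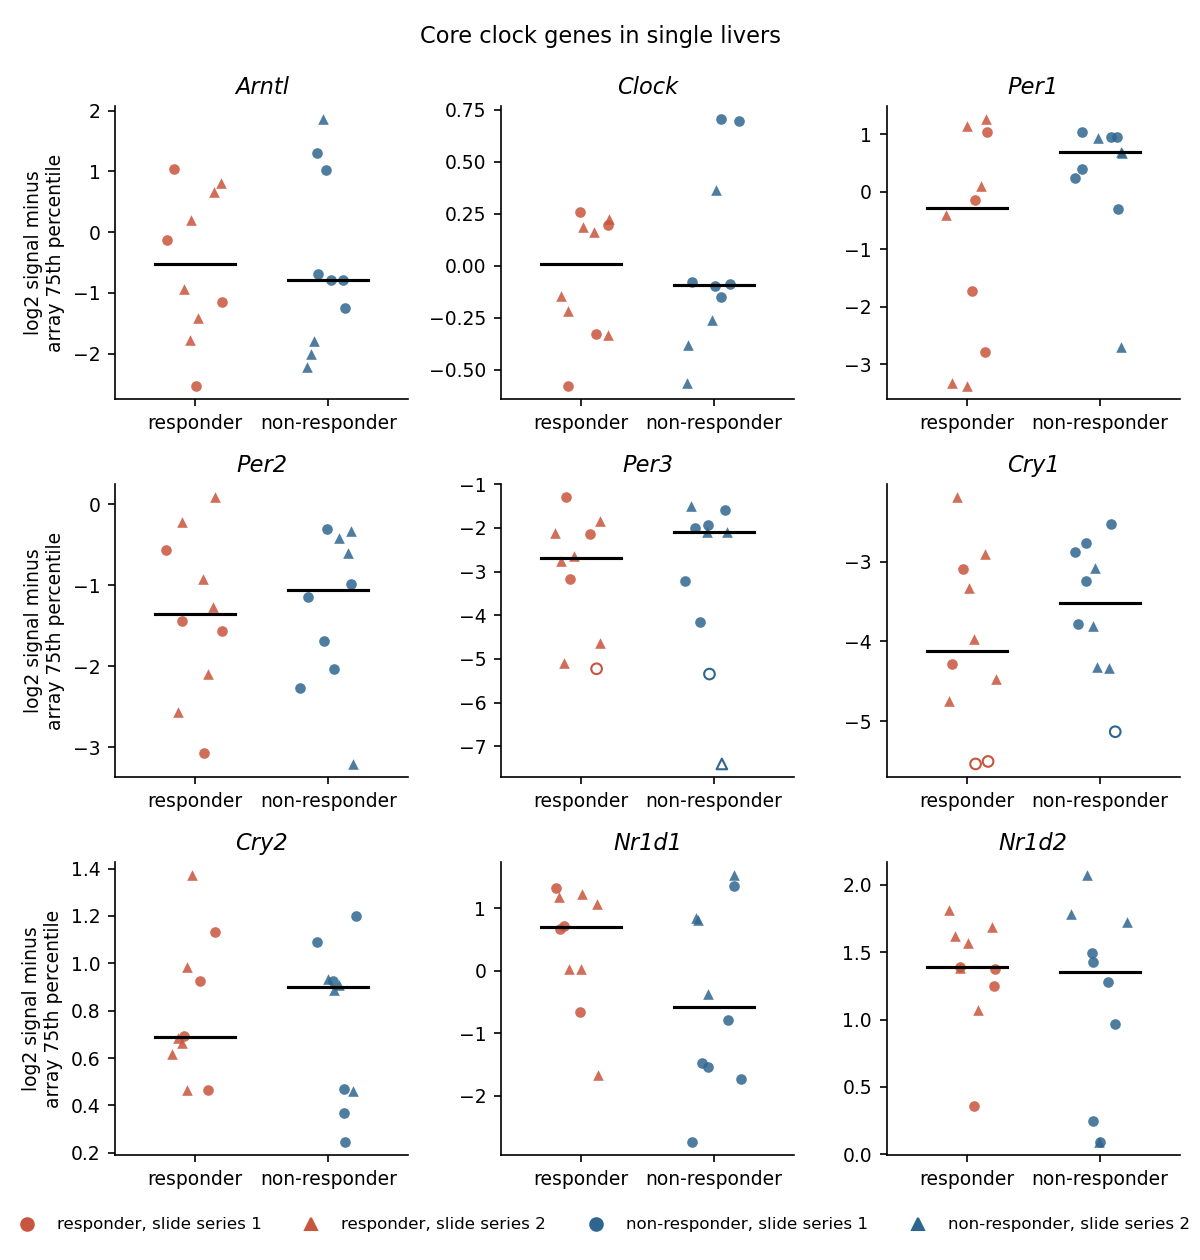
Levels of the 9 tested clock genes in single livers, with responders on the left and non-responders on the right of each panel. The y axis is log2 signal minus the array's 75th percentile, circles and triangles are the first and second slide series, bars are medians, and open symbols are spots not well above background. The 2 groups overlap in every panel, and 4 responders and 1 non-responder lie apart at the bottom of the Per1 panel.

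Arntl, which encodes the obligate activator BMAL1, was measured by a probe at chr7:120456978-120457037 (array annotation, build mm9, as for all probe positions below, whose exons were not looked up here). In responder livers its level ran from -2.53 through a median of -0.53 to 1.04, and in non-responder livers from -2.22 through -0.78 to 1.86. High and low livers occurred in both groups. The difference was 0.07 (SE 0.59; 95% interval -1.16 to 1.30; adjusted p = 0.979, limma), which leaves room for a change of more than 2-fold either way.

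Clock, its partner (probe at chr5:76641377-76641436), spanned a much narrower range. Its level lay between -0.58 and 0.26 in responders (median 0.01), against -0.56 to 0.70 in non-responders (median -0.09). The 2 highest values, 0.70 each, were those of non-responders 5 and 6, which also had high Arntl (1.31 and 1.02). The Clock difference was -0.04 (SE 0.16; 95% interval -0.39 to 0.30; adjusted p = 0.956, limma). The other 3 Clock probes followed the one used with r of 0.80 to 0.86 over the livers, and their differences were -0.08, -0.02 and 0.07.

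Npas2, which can stand in for CLOCK (probe at chr1:39418941-39419000), was well above background on 1 responder array and 1 non-responder array. Its probe read -6.75 to -5.03 in responders and -7.11 to -4.58 in non-responders, which for nearly all arrays is a bound rather than a level. It was left out of the tests.

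Per1, the most quickly induced repressor and a target of glucocorticoid and cAMP signals, had the largest group difference of the 9 members. Its probe, at chr11:68922878-68922937, ran from -3.37 through a median of -0.28 to 1.26 in responder livers, against -2.69 through 0.69 to 1.04 in non-responder livers. Values fell in 2 clusters: 5 livers lay at or below -1.72 and the other 15 at or above -0.41. The low cluster held responders 3, 4, 7 and 10 (-1.72, -3.33, -3.37 and -2.78) and non-responder 8 (-2.69), from both slide series. The mean over responder livers was -0.82 ± 1.84, against 0.29 ± 1.13 over non-responder livers (SD, n = 10 each). The fitted difference of -1.06, a 2.08-fold lower signal in responders, had an SE of 0.67 and a 95% interval of -2.47 to 0.35 (adjusted p = 0.715, limma). Slide series 1 alone gave -1.45 and slide series 2 alone -0.67. Leaving out non-responder 8 gave -1.49, and leaving out responder 10 gave -0.74.

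Per2, the PER protein most tightly tied to loop function (probe at chr1:93313046-93313105), ran from -3.07 through -1.36 to 0.08 in responders, against -3.21 through -1.06 to -0.31 in non-responders. The difference was -0.14 (SE 0.43; 95% interval -1.04 to 0.76; adjusted p = 0.947, limma). A second Per2 probe differed by 0.00 and followed the first with r of 0.67.

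Per3, a PER family member that is dispensable for rhythm (probe at chr4:150379256-150379315), was dim in some livers. It ran from -5.23 through -2.70 to -1.30 in responders and from -7.40 through -2.10 to -1.51 in non-responders. The lowest 3 values, in responder 3 (-5.23) and non-responders 6 and 8 (-5.35 and -7.40), were not well above background and are upper bounds. The difference was 0.09 (SE 0.75; 95% interval -1.47 to 1.66; adjusted p = 0.979, limma).

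Cry1, the late repressor of the loop (probe at chr10:84606495-84606554), read -5.54, -4.12 and -2.20 in responders as lowest, median and highest value, against -5.13, -3.51 and -2.53 in non-responders. Responders 1 and 3 and non-responder 4, at -5.54, -5.50 and -5.13, were not well above background. Its difference was -0.47 (SE 0.43; 95% interval -1.37 to 0.44; adjusted p = 0.801, limma), and it turned to 0.39 under normexp background correction. Cry2, the second cryptochrome (probe at chr2:92244363-92244422), spanned a narrow range of 0.46 to 1.37 in responders (median 0.69), against 0.25 to 1.20 in non-responders (median 0.90). The Cry2 interval of -0.25 to 0.34 around a difference of 0.04 (SE 0.14; adjusted p = 0.950, limma) left out a change of 1 log2 unit in either direction. A second Cry2 probe differed by 0.18 and followed the first with r of 0.89.

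Nr1d1, encoding REV-ERBα (probe at chr11:98630526-98631028), stood higher in the responder livers at the median. It ran from -1.67 through 0.70 to 1.33 in responders and from -2.74 through -0.58 to 1.53 in non-responders. Of the 10 responders, 7 exceeded the mean of the non-responders scanned with them, yet the highest single value was a non-responder's. The difference was 0.64 (SE 0.52; 95% interval -0.45 to 1.73; adjusted p = 0.775, limma). Its other 2 probes followed with r of 0.93 and 0.90 and differed by 0.46 and 0.05.

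The Nr1d1 difference had opposite signs in the slide series. In slide series 1, responders 1, 2, 3 and 10 read 1.33, -0.65, 0.72 and 0.68, against -1.73, -1.53, -1.48, 1.36, -2.74 and -0.78 in non-responders 1 to 6, a difference of 1.67. In slide series 2, responders 4 to 9 read 1.19, 0.03, -1.67, 0.03, 1.08 and 1.23, against 0.84, -0.37, 0.81 and 1.53 in non-responders 7 to 10, a difference of -0.39. The test of that contrast, the interaction of group and series, gave -2.06 (SE 0.95; unadjusted p = 0.0442; adjusted p = 0.503, limma). Over all genes that interaction called 0%, and 9.67% had an unadjusted p under 0.05. The Cry1 difference also changed sign, at -1.22 in series 1 against 0.28 in series 2 (adjusted p of the interaction = 0.561, limma).

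Nr1d2, encoding REV-ERBβ (probe at chr14:19037253-19037312), ran from 0.36 through 1.39 to 1.82 in responders, against 0.09 through 1.35 to 2.07 in non-responders. The 2 groups had nearly the same median, and the low values were those of responder 3 (0.36) and of non-responders 5, 6 and 8 (0.25, 0.09 and 0.09). The difference was 0.14 (SE 0.24; 95% interval -0.37 to 0.65; adjusted p = 0.893, limma).

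**Figure D2:**
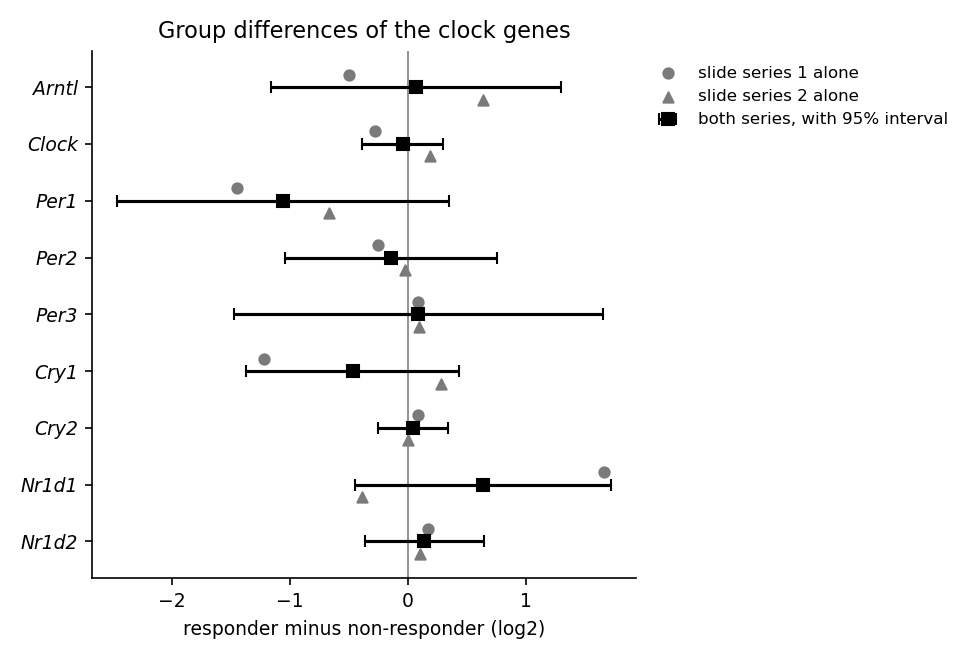
Responder minus non-responder difference of the 9 clock genes on the log2 scale (x axis), as squares with 95% intervals from limma, and as grey circles and triangles for the first and second slide series alone. Every interval spans 0, from the narrow one of Cry2 (-0.25 to 0.34) to that of Per3 (-1.47 to 1.66), and Nr1d1 lies at 1.67 for series 1 and -0.39 for series 2.

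Many genes, but no clock gene, passed the test between the slide series. Between the second and the first series 5203 genes were called, or 30.3%, against 0 of the 9 members (limma, adjusted p under 0.05). The SE of this difference ran from 0.14 (Cry2) to 0.75 (Per3) in the members. A shift that is called in a gene of smaller spread could be missed in them, so 0 of 9 does not show that they lack one. Nr1d2 came nearest, with means of 1.48 in the second series and 0.99 in the first (0.46, SE 0.24; adjusted p = 0.156, limma). Nr1d1 had means of 0.47 and -0.48 in the second and the first series (0.82, SE 0.52; adjusted p = 0.244, limma). With plain background subtraction, where 8859 genes were called, Cry1 passed as well, at -0.46 (adjusted p = 0.00381, limma), opposite in sign to its 0.25 here.

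Livers lay far apart in most clock genes. After group and slide series were fitted, the residual SD of Per3 was 1.74 log2 units, larger than in 99.1% of the genes tested. Per1 followed with 1.57 (99.0%), Arntl with 1.37 (98.8%) and Nr1d1 with 1.21 (98.4%). Per2 and Cry1 stood at 1.00 each (97.7%), and Nr1d2 at 0.56 (90.1%). Clock and Cry2 varied least among the members, at 0.38 and 0.32 (76.3% and 68.9%), still above the median of 0.23 over all genes. From lowest to highest liver, Arntl spanned 20.9-fold, Nr1d1 19.2-fold and Cry2 2.18-fold. This is a description without a test, and the spread of Per3 and Cry1 includes 3 livers each in which the spot was not well above background.

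**Figure D3:**
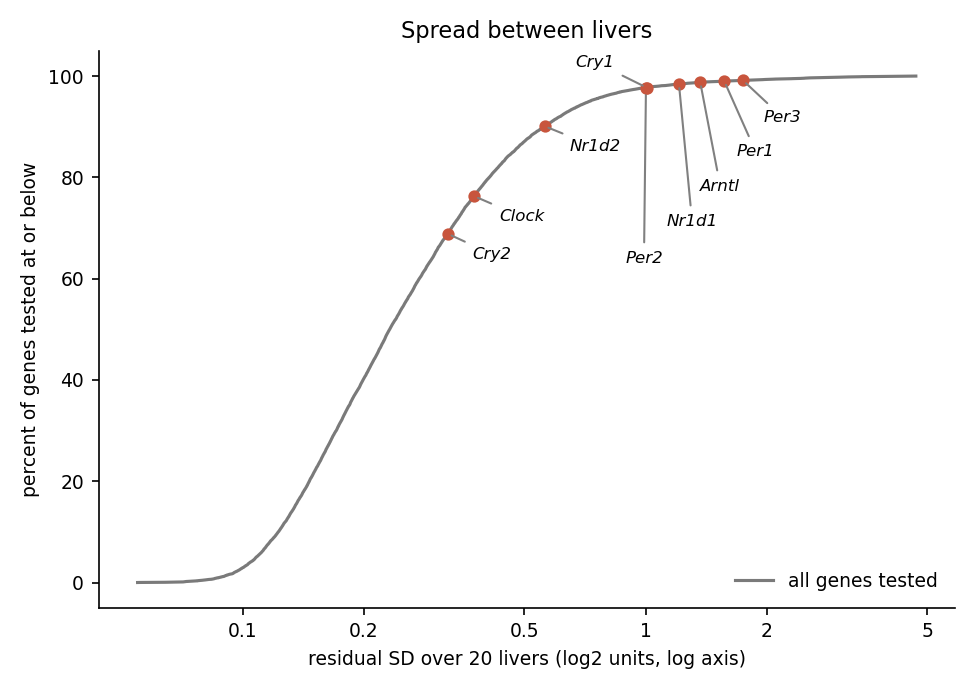
Residual SD over the 20 livers (x axis, log2 units on a log axis) against the percent of the 17194 genes tested at or below that value (y axis), with the 9 clock genes as red points on the curve of all genes. Per3, Per1, Arntl and Nr1d1 lie above 98% of the genes, and Clock and Cry2 at 76.3% and 68.9%.

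Whether one group scattered more than the other was tested on the absolute residuals. No gene passed (0% at an adjusted p under 0.05, 6% at an unadjusted one, limma). Per1 scattered more in responders, by 0.81 log2 units (unadjusted p = 0.0284; adjusted p = 0.813, limma), and Nr1d2 less in responders, by -0.33 (unadjusted p = 0.0298; adjusted p = 0.813, limma). Neither is past the threshold. For the other 7 members the unadjusted p was 0.255 or higher.

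Several members went up and down together from liver to liver. Pearson's r and Spearman's rho were taken over the 20 livers on residuals after group and slide series, with 100000 permutations, for the 28 pairs without Per1. The smallest p these can give is 1e-05. With Benjamini-Hochberg adjustment over the 28 pairs, 16 had an adjusted p under 0.05 for r, 7 of them positive and 9 negative, and all 16 kept their sign within each slide series. Arntl with Cry2 and Cry2 with Nr1d2 are the weakest of them (r = -0.55 and 0.56), and for both the adjusted permutation p of rho was 0.0993. The 20 arrays share the array scaling, and the members were chosen for belonging to 1 loop.

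Arntl and Clock went together (r = 0.88, rho = 0.83; adjusted permutation p = 5.6e-05 and 0.000112). Arntl ran against Nr1d2 (r = -0.86, rho = -0.76; adjusted permutation p = 5.6e-05 and 0.00092), and it ran against Per3 almost as closely (r = -0.83, rho = -0.69; adjusted permutation p = 5.6e-05 and 0.0028). Against Per2 its r was -0.71 and its rho -0.54 (adjusted permutation p = 0.000991 and 0.031). Without the 2 livers farthest from the Arntl median, r remained 0.86 with Clock, -0.78 with Nr1d2, -0.77 with Per3 and -0.60 with Per2. Livers high in Arntl and Clock were thus low in Nr1d2, Per2 and Per3. In responder 3 and non-responders 6 and 8 the Per3 spot was not well above background, and their Arntl levels were 1.04, 1.02 and 1.86. These livers enter every Per3 correlation given here.

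Within the repressor limb, Per2 and Per3 were by r the closest of the 28 pairs (r = 0.94, rho = 0.87; adjusted permutation p = 5.6e-05 and 7e-05). By rho, Nr1d1 with Cry1 was stronger, at -0.91. Per3 also went with Nr1d2 (r = 0.87, rho = 0.61; adjusted permutation p = 7e-05 and 0.0125) and with Cry2 (r = 0.78, rho = 0.80; adjusted permutation p = 0.00014 and 0.000233). Without the 2 livers farthest from the Per3 median, r was 0.75 with Nr1d2 and 0.82 with Cry2. For Per2 and Per3 the value without the 2 livers farthest from the Per2 median was 0.89.

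Nr1d1 and Cry1 were strongly opposed. The pair had r = -0.92 and rho = -0.91 (adjusted permutation p = 5.6e-05 and 7e-05), and r = -0.89 without the 2 livers farthest from the Cry1 median. Within slide series 1 alone r was -0.90, and within slide series 2 alone -0.92. In responders 1 and 3 and non-responder 4 the Cry1 spot was not well above background, and their Nr1d1 levels were 1.33, 0.72 and 1.36. The correlations were not rerun with normexp or plain background subtraction. Nr1d1 had no detectable relation with Per3 (r = 0.00, adjusted permutation p = 0.996; rho = -0.12, adjusted permutation p = 0.600) or with Per2 (r = -0.11, adjusted permutation p = 0.697; rho = -0.25, adjusted permutation p = 0.313). With its own paralogue Nr1d2 it had r = 0.32 and rho = 0.35 (adjusted permutation p = 0.227 and 0.179). Its relation with Arntl, the textbook target of REV-ERBα, was negative but did not pass (r = -0.48, rho = -0.45; adjusted permutation p = 0.0527 and 0.0823). Cry1 went with Arntl by rank (rho = 0.50, adjusted permutation p = 0.0491) but not by r (0.40, adjusted permutation p = 0.123; 0.34 without the 2 livers farthest from the Arntl median).

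**Figure D4:**
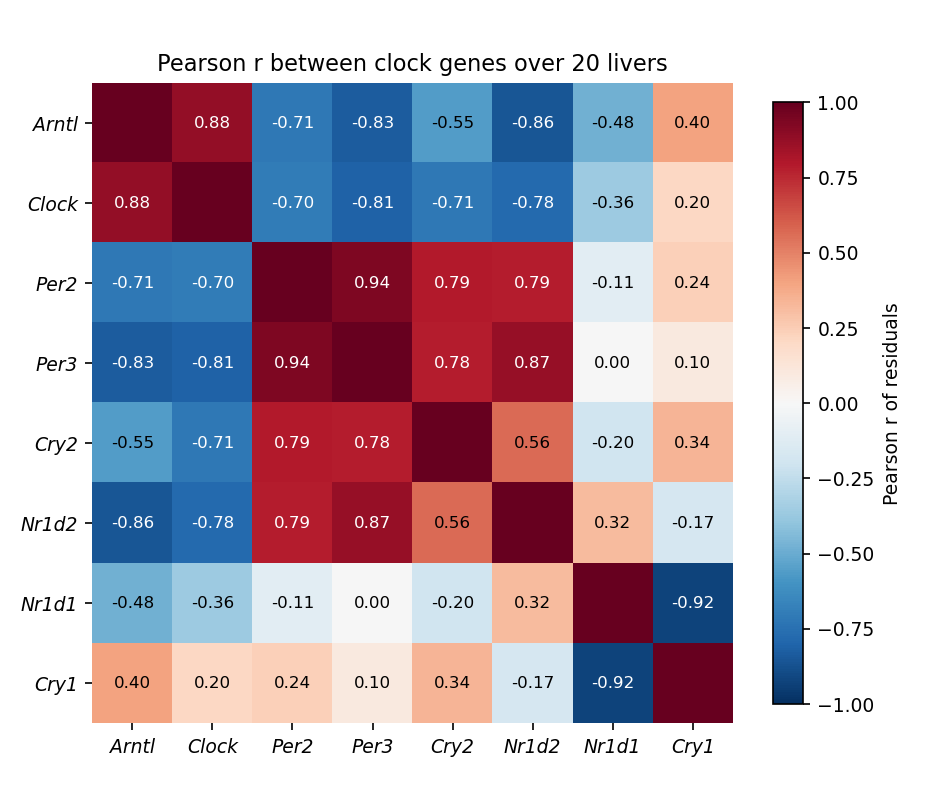
Pearson's r between 8 clock genes over the 20 livers, computed on residuals after group and slide series, with red for positive and blue for negative values. Arntl and Clock form one block, Per2, Per3, Cry2 and Nr1d2 the opposite one, and Nr1d1 and Cry1 oppose each other (-0.92), with weaker values towards the rest (Cry1 with Arntl 0.40, Nr1d1 with Arntl -0.48).

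**Figure D5:**
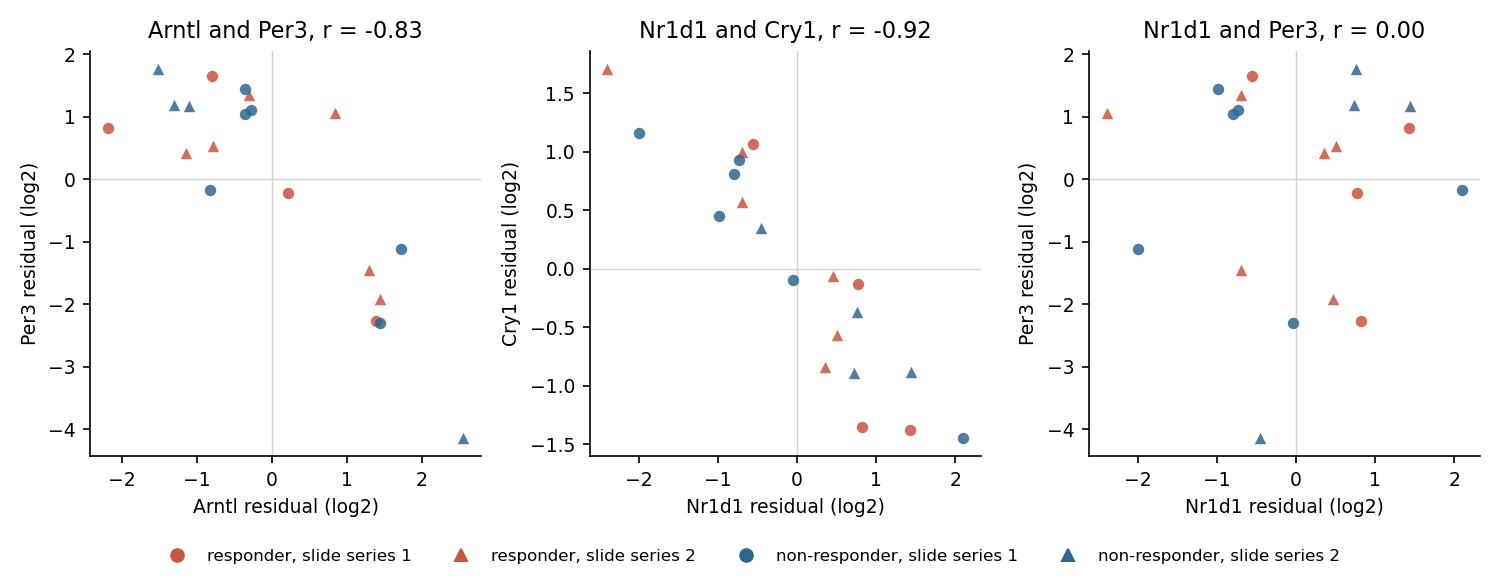
Residuals of 3 gene pairs in the 20 livers (both axes in log2 units after group and slide series), with responders in red, non-responders in blue, and circles and triangles for the first and second slide series. Arntl falls against Per3 (r = -0.83) and Nr1d1 against Cry1 (r = -0.92), while Nr1d1 and Per3 show no line (r = 0.00). The group means were taken out of these residuals, so the panels cannot show whether the groups differ.

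Because Per1 fell into 2 clusters, no r over all livers is given for it, and its 8 pairs were taken over the 15 livers of the upper cluster, a choice made after its values were seen. There Per1 went with Per2 (r = 0.80, rho = 0.84; adjusted permutation p = 0.00245 and 0.00184), Cry2 (r = 0.79, rho = 0.79; adjusted permutation p = 0.00245 and 0.00267) and Cry1 (r = 0.78, rho = 0.78; adjusted permutation p = 0.00245 and 0.00267). It ran against Nr1d1 (r = -0.63, rho = -0.66; adjusted permutation p = 0.0242 and 0.0168). Without the 2 livers farthest from the Per1 median, these became 0.79, 0.72, 0.76 and -0.52. With Arntl its r was 0.21 and its rho 0.25 (adjusted permutation p = 0.528 and 0.447). These values describe the upper cluster alone. The 5 livers of the lower cluster are too few for a correlation. Their Arntl levels were 1.04, 0.81, 0.67 and -0.13 in responders 3, 4, 7 and 10 and 1.86 in non-responder 8, and their Nr1d1 levels were 0.72, 1.19, 0.03, 0.68 and -0.37 in the same order.

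A principal component analysis of the 9 members, each scaled to unit variance over the 20 livers, gave 2 main directions. It used the levels themselves, without group and slide series taken out, and Per1 over both of its clusters. The first component held 58.4% of the variance, with Arntl (0.39) and Clock (0.39) loading against Per3 (-0.41), Per2 (-0.40), Nr1d2 (-0.37), Cry2 (-0.35) and Per1 (-0.31). Cry1 had a loading of 0.00 there and Nr1d1 of -0.08. The second held 27.0%, with Nr1d1 (0.61) against Cry1 (-0.59). Responders ran from -2.55 to 3.16 on the first component and non-responders from -2.58 to 4.55. On the second they ran from -2.49 to 2.06 in responders and from -2.61 to 2.01 in non-responders. The ranges of the groups thus overlapped widely on both components. A range rests on its outermost livers alone, and where the groups lay within it was not compared.

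Single livers make the directions concrete. Responder 1 had the lowest Arntl of all livers (-2.53) next to a high Nr1d1 (1.33), with a Cry1 spot (-5.54) that was not well above background. Responder 6 had the highest Cry1 (-2.20) and an Nr1d1 of -1.67, with Arntl at 0.21. Non-responder 5 paired the lowest Nr1d1 (-2.74) with high Arntl (1.31) and a Cry1 of -2.53. Non-responder 8 had the highest Arntl (1.86) and the lowest Per2 (-3.21), with a Per3 spot (-7.40) that was not well above background, yet a middling Nr1d1 (-0.37). Responder 5 had the highest Per1 (1.26), Per2 (0.08) and Cry2 (1.37), with Arntl at -0.93. Without a sampling hour the livers cannot be placed in a daily order.

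Many other genes had patterns close to these. Over the 20 livers, 50 of 17193 other genes had an r above 0.8 with Arntl and 28 an r below -0.8, and the median absolute r was 0.22. These are descriptions over the same livers and arrays, without a test. The named genes most like Arntl were Btg1 (0.97), an antiproliferative factor, Lgalsl (0.95), a galectin-like protein, Pnrc1 (0.92), a nuclear receptor coactivator, Dnmt3b (0.92), a DNA methyltransferase, and Nfil3 (0.92), the repressor that competes for D-boxes. The most opposite were Dbp (-0.96), the activator at D-boxes such as those shown in Per3, Ccne1 (-0.92), a cyclin, and Pcsk4 (-0.90), a proprotein convertase. Among the members, Clock ranked 15 from the top of all genes in likeness to Arntl, and Nr1d2 and Per3 ranked 10 and 17 from the bottom.

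With Nr1d1, 91 genes had an r above 0.8 and 47 an r below -0.8, with a median absolute r of 0.26. The named genes most like it were Gsdme (0.92), a gasdermin, Klhdc7a (0.92), a kelch-domain protein, Tbcel (0.90), a tubulin cofactor-like protein, Bcar1 (0.89), an adhesion adaptor, and Dbndd2 (0.88), a dysbindin-domain protein. Cry1 ranked 1 from the bottom of all 17193 genes, and the most opposite named genes after it were Atp2a2 (-0.91), the calcium pump of the endoplasmic reticulum, Agmo (-0.90), which cleaves ether lipids, and Rabgef1 (-0.90), an exchange factor of endosomes.

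Markers of other cells were set against both anchors in 16 relations. Lymphocyte markers, 4 of 5 tested, had mean levels of -3.35 to -2.10 in responders and -2.85 to -2.21 in non-responders, and they went with Nr1d1 (r = 0.73, rho = 0.86; adjusted permutation p = 0.0048 and 0.00032). The r of lymphocyte markers was 0.79 within slide series 1, 0.48 within slide series 2, and 0.73 without the 2 livers farthest from the Nr1d1 median. Macrophage markers, all 5 tested, had an r of 0.54 and a rho of 0.53 with Nr1d1 that did not pass (adjusted permutation p = 0.111 and 0.138), and their r was 0.90 within slide series 1 and -0.07 within slide series 2. Exocrine pancreas markers, 9 of 10 tested, ranged widely, from -4.87 to 5.36 in responders and from -4.08 to 5.38 in non-responders, with an r of 0.14 with Arntl and -0.03 with Nr1d1 (adjusted permutation p = 0.942 and 0.966). No marker list passed with Arntl over the 20 livers. Endothelial markers had an r of 0.28 with Arntl (adjusted permutation p = 0.719), at 0.85 within slide series 1 and 0.21 within slide series 2. The part of lymphocyte and macrophage RNA in the Nr1d1 pattern was not tested.

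No gene of the wider clock network was called between the groups. Several lists join genes that went with Arntl and genes that ran against it, such as Nfil3 (r = 0.92) and Dbp (-0.96). A count by sign over such a list therefore gives no direction of the clock. Of the other loop components, 5 of 8 were tested, and 1 was higher and 4 lower in responders, none called. Timeless, a replication fork protein named after a Drosophila clock gene, differed by -0.16 (SE 0.08; adjusted p = 0.645, limma), and Rora, the activator at ROR elements, by -0.10 (SE 0.10; adjusted p = 0.816, limma). Rorb, Bhlhe41 and Arntl2 did not pass the filter. Of the PAR bZIP factors and Nfil3, 1 of 4 was higher and 3 were lower. Dbp, an activator at D-boxes, averaged 4.82 ± 1.36 over responder livers and 4.39 ± 2.07 over non-responder livers (SD, n = 10 each). Its difference was 0.31 (SE 0.76; adjusted p = 0.929, limma), and Hlf differed by -0.10 (SE 0.12; adjusted p = 0.845, limma).

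Of the 10 kinase, phosphatase and ubiquitin ligase genes that act on PER and CRY proteins, 4 were higher and 6 lower, none called. Against 7.98% of all genes, 3 of the 10 had an unadjusted p under 0.05 (limma). They included Ppp1cb, a phosphatase subunit, at -0.13 (SE 0.05; adjusted p = 0.590, limma), and Btrc, the ligase that marks PER for degradation, at 0.19 (SE 0.08; adjusted p = 0.602, limma). Of 12 well-known liver targets, 1 was higher and 11 lower, with a median of -0.28. The median over all genes was -0.0031, with 48.9% of genes higher in responders. Por, the electron donor of P450 enzymes, differed by -0.45 (SE 0.27; adjusted p = 0.702, limma), and Ppp1r3c, a glycogen-targeting subunit, by -0.36 (SE 0.28; adjusted p = 0.769, limma). Under the other 4 background corrections and scalings, 10 or 11 of the 12 were lower, with medians of -0.62 to -0.23. The 12 genes share livers and arrays, so their common sign is not 12 separate observations. They also join genes that went with Arntl, such as Insig2 (r = 0.91), and genes that ran against it, such as Wee1 (-0.75).

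Of 10 genes tied to glucocorticoid and feeding signals, which also reach Per1 and Per2, 2 were higher and 8 lower. The list includes genes that such signals induce, so it is not a list of regulators of Per1 and Per2. Sgk1, a kinase induced by glucocorticoids, averaged 1.99 ± 0.22 over responder livers, against 2.37 ± 0.28 over non-responder livers (SD, n = 10 each). Its difference was -0.35 (SE 0.11; unadjusted p = 0.00535; adjusted p = 0.522, limma). Hsf1, the heat shock factor, differed by 0.26 (SE 0.11; adjusted p = 0.607, limma). As a description of spread between livers, the median residual SD ranked above 97.0% of genes for the liver targets. For the PAR bZIP factors and Nfil3 it ranked above 95.8%. The rank was 54.5% for the genes of glucocorticoid and feeding signals and 27.5% for the kinases and ligases.

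With Arntl and Nr1d1 as covariates, an alternative added after the data were seen, the fit took out a linear relation with both genes. No livers were matched. No gene was called (0 of 17192, with 1648 at an unadjusted p under 0.05). The Per1 difference became -0.43 (SE 0.41; adjusted p = 0.762, limma), and that of Per3 became 0.67 (SE 0.26; unadjusted p = 0.0199; adjusted p = 0.461, limma). Clock stood at -0.08, Per2 at 0.22, Cry1 at 0.04, Cry2 at 0.16 and Nr1d2 at 0.20. Per1 entered this fit over both of its clusters, and the cause of the changes was not tested.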

How the data were processed

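RNA of each of the 20 livers was amplified, labelled with Cy3 and hybridised to 1 Agilent array, per the labels' protocols. The deposited scanner output gives each spot's intensity on a linear scale. Agilent Feature Extraction subtracted the background from the processed intensity and detrended it within the array, per the file headers, which name version 10.5.1.1, while the submitters' processing notes name 9.1. The authors' deposited table of 33220 rows of intensity, whose normalization is not stated in what was used here, served as an alternative.

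Control spots and outlier-flagged spots were dropped, and spots of a probe averaged. Values were log2 of processed intensity minus the array's 75th percentile. A probe stayed in when 5 or more arrays of a group had it well above background (26160 probes), and each gene was its brightest such probe. Gene names came from RefSeq's table, through the accession for 27479 probes, the symbol for 5478 and an older symbol for 679. Probe positions are those of the array annotation (mm9).

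The main test was limma 3.58.1 in R 4.3.3 (lmFit and eBayes), fitted to group and slide series over all 17194 rows, with Benjamini-Hochberg adjustment at 0.05. Slide series, its interaction with group, and the spread (absolute residuals) were tested likewise. Fits were tested on simulated data. Correlations had been planned for every pair of members, but Npas2 failed the filter and Per1 fell in clusters, which left 28 and 8 pairs.

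The members and lists were chosen with earlier results of these data known. Named genes were all members, the 2 genes per list with the smallest p, and the 5 most and 3 least like Arntl and Nr1d1, leaving out predicted genes, clones and accessions. Alternatives were quantile normalization, the authors' values, 2 background corrections (offset 50), 2 filters, the mean of all probes, no series term, slide as a random block (correlation 0.0368), a replicate block, each series alone and each array left out. The number of arrays limits the precision.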

Additional observations from a re-analysis of the deposited data

Results flagged for a closer look

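In 2 of the 18 sets of values tested (9 members in each of the 2 groups of 10), the most extreme liver stood apart. The measure is Dixon's ratio, the gap to the nearest other liver divided by the range of the group, read against its 95% critical value for 10 samples. Chance passes about 1 in 20 such sets. In Nr1d2, responder 3 at 0.36 was the low liver among responders, with a ratio of 0.489. That liver also had high Arntl (1.04) and low Per2 (-3.07). In Per1, non-responder 8 at -2.69 lay below the other non-responders, with a ratio of 0.641. It was the highest liver for Arntl (1.86), and its Per3 spot (-7.40) was not well above background. No cause was tested for either.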

How the results depend on the processing

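The number of genes called between responders and non-responders was 0 under every alternative run, with 401 (normexp) to 1830 (replicate block) at an unadjusted p under 0.05, and 0 clock genes were called in any of them (limma). Signs of the small member differences were not stable, and the cause was not tested. Responder minus non-responder became 0.034 for Per2, 0.39 for Cry1, -0.046 for Cry2 and -0.045 for Nr1d2 with normexp, and -0.066 for Per3 with plain subtraction. It was -0.49 for Arntl in the first slide series alone, and 0.19 for Clock, 0.28 for Cry1, -0.0011 for Cry2 and -0.39 for Nr1d1 in the second alone. With Arntl and Nr1d1 as covariates, Per2 was at 0.22 and Cry1 at 0.040. Leaving out each liver in turn gave -0.16 to 0.46 for Arntl, -0.12 to 0.049 for Clock, -1.49 to -0.74 for Per1, -0.46 to 0.084 for Per2, -0.54 to 0.43 for Per3, -0.63 to -0.26 for Cry1, -0.010 to 0.091 for Cry2, 0.42 to 0.87 for Nr1d1 and -0.056 to 0.25 for Nr1d2.

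Whether the sample numbers pair the livers was not settled. Deviations of same-numbered livers correlated at -0.22 to 0.59, above 0.1 in 6 of 10 pairs. No values for livers of different numbers are given beside them. With the replicate block 0 genes were called, and the differences were 0.023 for Clock, -0.21 for Per3 and -0.053 for Cry2.

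Genes called between the slide series numbered 324 with normexp and 8859 with plain subtraction, against 5203. Second minus first series turned for Cry1 to -0.60 (normexp), -0.46 (plain subtraction, past the threshold at an adjusted p of 0.00381), -0.23 (authors' deposited values) and -0.34 (mean of all probes), and the mean of all probes gave 0.11 for Clock and -0.057 for Cry2. Among correlations, 6 that had not passed changed sign: -0.12 for Clock and Cry1 and 0.020 for Cry1 and Nr1d2 in the first series alone, and, in the second alone, -0.026 for Per2 and Cry1, 0.051 for Per2 and Nr1d1, -0.18 for Per3 and Cry1 and 0.18 for Per3 and Nr1d1. Of the 16 that passed, none changed sign, but 3 no longer passed in the first series alone, 3 in the second alone and 1 with the authors' deposited values, and Cry2 was in 6 of these 7. Low signal over background limits Npas2 throughout, Per3 in 3 livers and Cry1 in 3.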
